A study of Sus scrofa with 4 samples.

Results

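Leukocytes are blood-derived immune cells, and macrophages are the phagocytes among them that settle in tissues. In the ovary, leukocytes lie in the stroma and in the vascular theca around a follicle, on the outer side of a basement membrane that encloses the granulosa cells, and macrophages gather in large numbers in follicles that degenerate or have ovulated. Genes made by these cells and hardly at all by granulosa cells can therefore serve as a measure of immune cells in a granulosa cell preparation. The 31 genes described here are pan-leukocyte, macrophage and T cell markers, taken by symbol from a table of 29884 rows. Of these, 30 have a row under their own symbol, and CYBB was found under GP91-PHOX, of which RefSeq gives it as a synonym.

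The table holds RNA-seq read counts of granulosa cells, the somatic layer that feeds the oocyte inside a follicle, taken from porcine antral follicles. The cells of 2 libraries had a high share in G0/G1, the part of the cell cycle before DNA synthesis, and those of the other 2 had a low share, as read by flow cytometry. No treatment, breed, age or sorting of cell types is named in the labels, and they name no animals. The p-values therefore reflect only how much these 4 samples vary, which may be technical. Library totals were 30399863 and 28701688 counts in high G0/G1 cells and 32674921 and 27442850 in low G0/G1 cells. Levels are given as counts, or as CPM, the count scaled to a common library size by TMM, and where a library had 0 counts up to 3 remain possible, which is 0.0941 to 0.105 CPM depending on the library. Intervals and limits cover counting error only.

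The label of the cells was set beside marker lists, which were chosen with earlier results of these data known. The lists hold different genes, so their sums are compared between libraries and not between lists. The 12 granulosa genes, among them FSHR, INHA and the aromatase gene CYP19A3, summed to 38919 and 26596 CPM in high and 22654 and 19781 CPM in low G0/G1 cells. The 31 leukocyte and macrophage genes summed to 27.3 and 39.4 CPM in high and 17.3 and 45.2 CPM in low G0/G1 cells. As a share of the library that is 0.00267% (95% Wilson interval 0.00250% to 0.00286%) and 0.00391% (0.00369% to 0.00414%) in high, and 0.00169% (0.00155% to 0.00183%) and 0.00475% (0.00450% to 0.00501%) in low. The 2 low libraries therefore lay at the bottom and the top of the range, with both high libraries between them.

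Most of these counts came from SPI1, CD74 and CTSS, a trio picked out after the values were seen. They held 75.4% and 61.7% of the members' counts in high and 71.9% and 50.3% in low G0/G1 cells. The other 28 genes together had 200 and 430 counts in high and 155 and 648 in low. Of the 31 members, 21 and 16 had fewer than 10 counts in high replicates 1 and 2, and 24 and 12 in low replicates 1 and 2. At or under 3 counts there were 12 and 11 members in high, against 19 and 3 in low G0/G1 cells. Transcript lengths are not used here, so levels are not compared between genes.

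**Figure D1:**
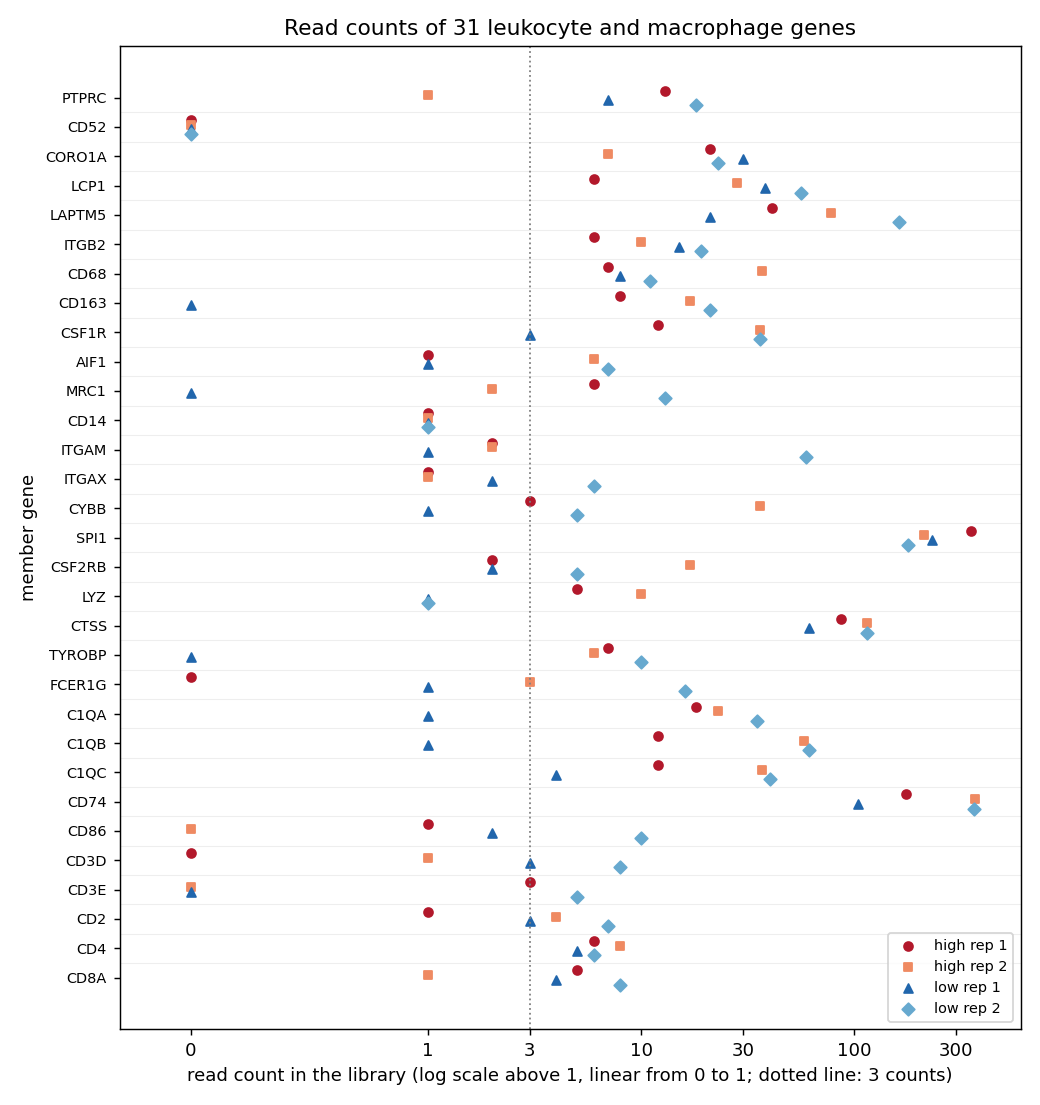
Read counts of the 31 leukocyte and macrophage genes, with 1 point per library (high replicates 1 and 2, low replicates 1 and 2) and an axis that is logarithmic above 1 and linear from 0 to 1. CD52 sits at 0 in all 4 libraries, SPI1, CD74 and CTSS lie at 61 counts or more in each, and low replicate 1 lies leftmost for CD163, CSF1R and the 3 C1q chains.

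Setting high against low G0/G1 cells asks whether immune cell RNA goes with the share of cells in G0/G1. After a filter on low counts, 14 of the 31 members were tested, and the other 17 did not pass it. By edgeR's quasi-likelihood test with Benjamini-Hochberg adjustment over 14352 genes, 0 members had an adjusted p under 0.05 and 0 an unadjusted p under 0.05. Over all genes tested 0% were called at an adjusted p under 0.05, and 20.7% had an unadjusted p under 0.05. The members' adjusted p ran from 0.412 to 0.959. DESeq2, which gave an adjusted p for 8 of the 14, called 0 of them, against 11.3% of all genes to which it gave an adjusted p, with a lowest member value of 0.471. In high G0/G1 cells 9 of the 14 were on the higher and 5 on the lower side, and over all genes tested 50.6% were on the lower side. The members' median was 0.19 on the log2 scale, against -0.0090 over all genes tested. Standard errors of these members ran from 0.39 to 1.60 on the log2 scale, and a p above the threshold does not show that the levels were equal.

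That median changed direction with the libraries used, in fits that each applied the filter anew and tested 17 to 21 members. Leaving out high replicate 2 gave -0.42 and leaving out low replicate 1 gave -0.68, while leaving out low replicate 2 gave 1.66 and leaving out high replicate 1 gave 0.33. In 10 of the 14 members the difference between the group means in CPM was smaller than the pooled SD within groups. The share over all genes tested is not given for this measure, so it does not set the members apart. The groups did not overlap in 4 of the 14 members, or 28.6%, against 56.6% of all genes tested. In bulk RNA fewer cells of a type and less RNA per cell cannot be told apart, so none of these values counts cells.

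Pan-leukocyte genes were low in every library, and the 5 tested all had a negative log2 fold change by edgeR that missed the threshold, though LAPTM5 was at 0.049 by limma-voom. PTPRC encodes CD45, the tyrosine phosphatase on the surface of all nucleated blood cells. It had 13 and 1 counts in high and 7 and 18 counts in low G0/G1 cells. The 95% Poisson intervals of these counts are 6.92 to 22.2 and 0.0253 to 5.57 in high, and 2.81 to 14.4 and 10.7 to 28.4 in low. The groups overlapped, with a log2 fold change of -0.82 ± 1.20 (SE, edgeR adjusted p = 0.730). Leaving out high replicate 2 turned it to 0.055 and leaving out low replicate 2 to 0.11. CD52, a small glycoprotein anchored on lymphocytes and monocytes, had 0 counts in all 4 libraries, where the 95% Poisson interval reaches to 3.69 in each.

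LAPTM5, a lysosomal membrane protein of blood cells, had 41 and 78 counts in high and 21 and 161 counts in low G0/G1 cells. Its mean level was 2.06 ± 0.964 CPM in high and 3.12 ± 3.48 CPM in low (SD, n = 2 each), and its log2 fold change was -0.60 ± 1.04 (SE, edgeR adjusted p = 0.770). The 2 low libraries held its lowest and its highest value, and without low replicate 2 the fold change was 1.66. Low replicate 2 also held 47158 counts of 11 stromal and muscle markers, against 2015 in low replicate 1 and 3677 and 5040 in the high libraries, and the part of such cells in the LAPTM5 values was not tested.

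Of the members tested, 3 genes of the leukocyte cytoskeleton and adhesion had lower levels in both high libraries than in either low one. LCP1, the actin-bundling protein L-plastin, had 6 and 28 counts in high and 38 and 56 in low G0/G1 cells, with a log2 fold change of -1.40 ± 0.90 (SE, edgeR adjusted p = 0.412). ITGB2, the beta chain that the leukocyte integrins share, had 6 and 10 counts in high and 15 and 19 in low (-1.02 ± 0.72, edgeR adjusted p = 0.452). CORO1A, an actin-binding coronin, had 21 and 7 counts in high and 30 and 23 in low (-0.86 ± 0.76, edgeR adjusted p = 0.546). In each of these 3 genes the groups did not overlap, yet each missed the threshold, and 29.8% of all genes tested were ordered in this way. With 1 library left out the fold change ranged from -2.93 to -0.68 for LCP1 and from -1.47 to -0.69 for ITGB2. For CORO1A it ranged from -1.81 to -0.30. Of 20 further genes listed for leukocytes in general, 8 were tested, 6 on the lower side and 2 on the higher. Those 2 were HCLS1, with 38 and 70 counts in high and 3 and 25 in low (1.96 ± 1.08, edgeR adjusted p = 0.351), and FERMT3. FERMT3 had 457 and 84 in high and 180 and 87 in low (1.08 ± 0.83, edgeR adjusted p = 0.496).

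**Figure D2:**
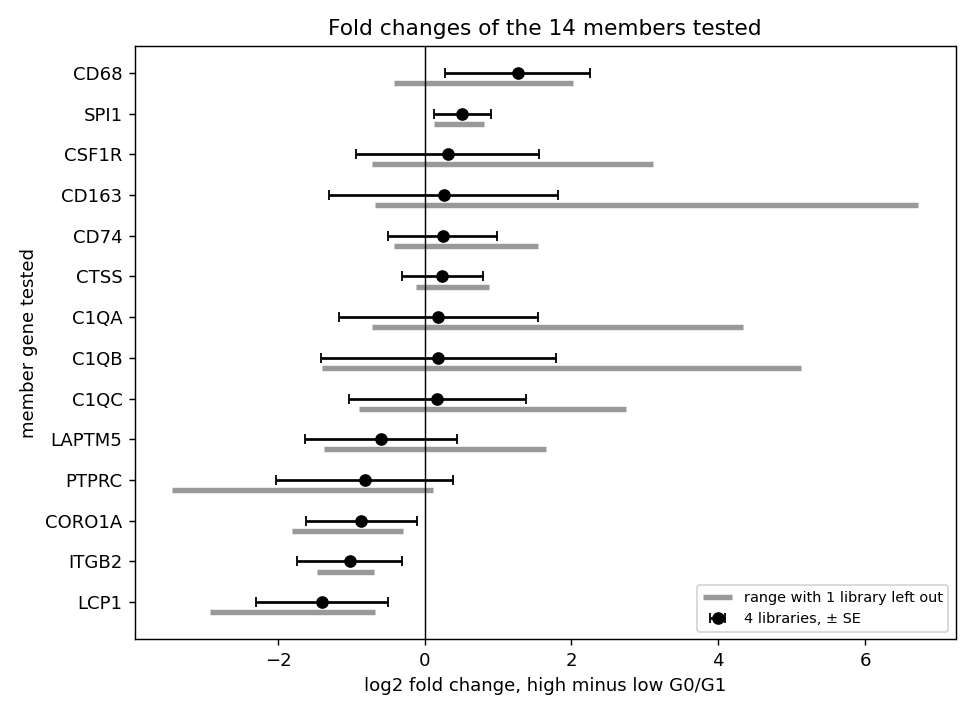
Log2 fold change, high minus low G0/G1, of the 14 members tested, as points with ± SE from edgeR's fit to 4 libraries and as grey bars for the range of values when 1 library is left out. The grey bars cross 0 for 10 of the 14 members, and lie on 1 side of 0 for SPI1, CORO1A, ITGB2 and LCP1.

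Among macrophage genes, the transcription factor gene behaved apart from the surface receptors. SPI1 encodes PU.1, which directs the development of myeloid cells and of B cells. It had 352 and 211 counts in high and 231 and 179 counts in low G0/G1 cells, or 9.61 ± 3.11 CPM in high and 6.73 ± 0.734 CPM in low (SD, n = 2 each). The groups did not overlap in CPM, at 11.8 and 7.41 CPM against 7.25 and 6.21 CPM, and 26.8% of all genes tested had both high libraries above both low ones. The log2 fold change was 0.51 ± 0.39 (SE, edgeR adjusted p = 0.482), with a range of 0.13 to 0.81 when 1 library was left out. SPI1 was highest in high replicate 1 and lowest in low replicate 2, which none of the other 27 members with 10 or more counts in all was.

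SPI1 lies on chromosome 2 at 15227850 to 15245679 in Sscrofa11.1, and the annotation places MYBPC3 2000 bases away. MYBPC3, a myosin-binding protein gene, had 6140 and 4638 counts in high and 5820 and 4290 in low G0/G1 cells. Strand and annotation of the counting are not given, and any share of reads from this neighbour in the SPI1 counts was not tested. Other members also have abundant neighbours, chosen here after their counts were seen. CD68 lies 506 bases from EIF4A1, a translation initiation factor gene with 9633 and 7302 counts in high and 21596 and 15702 in low. CSF1R lies 111 bases from HMGXB3, with 1193 and 1430 counts in high and 1512 and 1435 in low, and the annotated span of AIF1 overlaps LST1, with 242 and 154 counts in high and 364 and 344 in low.

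CSF1R, the receptor through which the growth factors CSF1 and IL34 keep macrophages alive, had 12 and 36 counts in high and 3 and 36 counts in low G0/G1 cells. Low replicate 1 stood below the other 3 libraries, and high replicate 2 and low replicate 2 were at the same count. The log2 fold change was 0.32 ± 1.25 (SE, edgeR adjusted p = 0.907). CD163, a scavenger receptor of macrophages that takes up haemoglobin bound to haptoglobin, had 8 and 17 counts in high and 0 and 21 counts in low (0.26 ± 1.56, edgeR adjusted p = 0.941). For both genes the groups overlapped, and leaving out low replicate 1 gave a negative fold change, -0.51 for CSF1R and -0.68 for CD163, as did leaving out high replicate 2, at -0.72 and -0.42.

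CD68, a glycoprotein of phagocyte lysosomes, had 7 and 37 counts in high and 8 and 11 counts in low G0/G1 cells. High replicate 2 alone stood above the other libraries, which lay within each other's Poisson intervals. The log2 fold change of 1.27 ± 0.99 (SE, edgeR adjusted p = 0.499) turned to -0.42 without high replicate 2. CTSS, the lysosomal protease cathepsin S, had 86 and 115 counts in high and 61 and 114 in low, with a log2 fold change of 0.24 ± 0.55 (SE, edgeR adjusted p = 0.834). Leaving out high replicate 2 turned it to -0.021 and leaving out low replicate 1 to -0.12.

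Some macrophage genes did not pass the filter because too few libraries reached the minimum count. CYBB, the catalytic subunit of the phagocyte NADPH oxidase, had 3 and 36 counts in high and 1 and 5 in low G0/G1 cells. CSF2RB, the chain shared by the receptors of GM-CSF, IL-3 and IL-5, had 2 and 17 in high and 2 and 5 in low. High replicate 2 held most of the counts of both genes. LYZ, the bactericidal enzyme lysozyme, had 5 and 10 counts in high and 1 and 1 in low.

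The integrin chains and the mannose receptor had most of their counts in low replicate 2. ITGAM, the CD11b chain that pairs with ITGB2 on myeloid cells, had 2 and 2 counts in high and 1 and 59 in low G0/G1 cells. The 95% Poisson interval of the 59 counts is 44.9 to 76.1, while no other library's interval reaches above 7.22. ITGAX, the CD11c chain of dendritic cells and some macrophages, had 1 and 1 counts in high and 2 and 6 in low, and MRC1, the mannose receptor, had 6 and 2 in high and 0 and 13 in low. AIF1, the calcium-binding protein IBA1, had 1 and 6 counts in high and 1 and 7 in low. CD14, the co-receptor for bacterial lipopolysaccharide on monocytes, had 1 count in each of the 4 libraries.

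TYROBP and FCER1G encode adaptors that carry an immunoreceptor tyrosine-based activation motif and signal for receptors of myeloid and natural killer cells. TYROBP had 7 and 6 counts in high and 0 and 10 in low G0/G1 cells, and FCER1G had 0 and 3 in high and 1 and 16 in low. For both genes low replicate 2 held the highest count, and neither was tested.

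The 3 C1q genes ranked the 4 libraries in the same order. C1QA, C1QB and C1QC encode the chains of C1q, the recognition part of the classical complement pathway, which tissue macrophages make. They lie in a row on chromosome 6, C1QA at 80586259 to 80589213, C1QC at 80592591 to 80597464 and C1QB at 80601680 to 80606076. C1QA had 18 and 23 counts in high and 1 and 35 in low G0/G1 cells, C1QB had 12 and 58 in high and 1 and 61 in low, and C1QC had 12 and 37 in high and 4 and 40 in low. In all 3 genes low replicate 1 was lowest and low replicate 2 highest, so the groups overlapped.

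Summed over the 3 chains, C1q stood at 1.41 and 4.14 CPM in high and 0.188 and 4.72 CPM in low G0/G1 cells. The means were 2.78 ± 1.93 CPM in high and 2.45 ± 3.20 CPM in low (SD, n = 2 each). For C1QB, the 95% Poisson interval was 0.0253 to 5.57 counts in low replicate 1 and 46.7 to 78.4 in low replicate 2, which compares these libraries and not the groups. The log2 fold changes between groups were 0.19 ± 1.36 for C1QA, 0.19 ± 1.60 for C1QB and 0.17 ± 1.21 for C1QC (SE, edgeR adjusted p = 0.951, 0.959 and 0.950). All 3 turned negative without high replicate 2 and without low replicate 1, with values between -1.40 and -0.033.

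**Figure D3:**
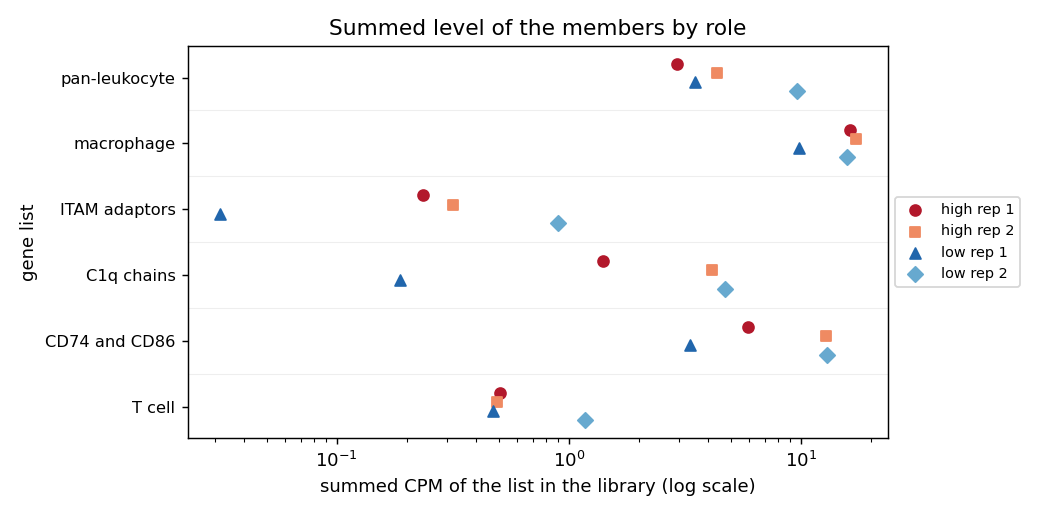
Summed CPM of the members by role on a log axis, with 1 point per library. The C1q chains run from 0.188 CPM in low replicate 1 to 4.72 CPM in low replicate 2 with the high libraries between them, while the T cell genes sit between 0.471 and 1.18 CPM.

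CD74, the invariant chain that guides MHC class II molecules to the compartment where peptides are loaded, was at 5.87 and 12.8 CPM in high and 3.26 and 12.6 CPM in low G0/G1 cells. The means were 9.36 ± 4.93 CPM in high and 7.91 ± 6.57 CPM in low (SD, n = 2 each). The difference between groups was smaller than the spread within either, with a log2 fold change of 0.24 ± 0.74 (SE, edgeR adjusted p = 0.879). Leaving out high replicate 2 turned it to -0.43 and leaving out low replicate 1 to -0.35. High replicate 2 and low replicate 2 stood together above the other 2 libraries. CD86, a ligand that gives T cells their second signal, had 1 and 0 counts in high and 2 and 10 in low.

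The MHC class II genes, which present peptides to helper T cells, were as a sum lowest in low replicate 1, though 3 of the 8 with 10 or more counts in all were lowest or tied for lowest in high replicate 1. The 9 listed genes, none of them a member, summed to 2.95 and 7.44 CPM in high and 1.22 and 12.3 CPM in low G0/G1 cells. SLA-DQA1, an alpha chain, had 34 and 43 counts in high and 5 and 110 in low. Of the 6 tested, 2 were on the higher side and 4 on the lower. All 6 overlapped between groups, while 56.6% of all genes tested did not. By edgeR 0 of them had an adjusted or an unadjusted p under 0.05, against 0% and 20.7% of all genes tested. DESeq2 gave no adjusted p to SLA-DMB and CIITA. It called 0 of the others tested, against 11.3% of all genes to which it gave an adjusted p. The class II transactivator CIITA had 4 and 23 counts in high and 5 and 20 in low.

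T cell genes were close to the limit of detection in all 4 libraries, and none of the 5 was tested. CD3E, a chain of the T cell receptor complex that defines the lineage, had 3 and 0 counts in high and 0 and 5 in low G0/G1 cells. CD3D, another chain of the complex, had 0 and 1 in high and 3 and 8 in low. CD2, an adhesion receptor of T and natural killer cells, had 1 and 4 in high and 3 and 7 in low. The coreceptor genes CD4 and CD8A had 6 and 8, and 5 and 1, counts in high, against 5 and 6, and 4 and 8, in low. Together the 5 genes had 15 and 14 counts in high and 15 and 34 in low, with no more than 8 for a gene in any library.

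Between the libraries of each group most members differed in the same direction. Of the 28 members with 10 or more counts over all libraries, 26 were higher in low replicate 2 than in low replicate 1, all but SPI1 and CORO1A, and 21 were higher in high replicate 2 than in high replicate 1. Over all genes tested the shares were 50.6% and 47.0%. The median log2 ratio of these members was 1.28 between the low libraries and 0.74 between the high ones, against 0.0063 and -0.045 over all genes tested. These members share their libraries and may share their source cells, so the counts are not independent, and no test was made. The titles of high replicate 2 and low replicate 2 hold codes that begin with the same letter, W, whose meaning is not given. A source or batch shared by these 2 libraries was not tested.

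The member ratios ran up to 4.47 for C1QB and 4.42 for ITGAM between the low libraries, and up to 2.99 for CYBB and 2.31 for CSF2RB between the high ones. Low replicate 2 was the highest library for 18 of the 28 members, high replicate 2 for 8, and high replicate 1 and low replicate 1 for 1 each. Low replicate 1 was the lowest library for 16. The 8 highest in high replicate 2 were CD68, CSF1R, CYBB, CSF2RB, LYZ, CTSS, CD74 and CD4, of which CSF1R, CTSS and CD74 had nearly the same counts in low replicate 2.

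**Figure D4:**
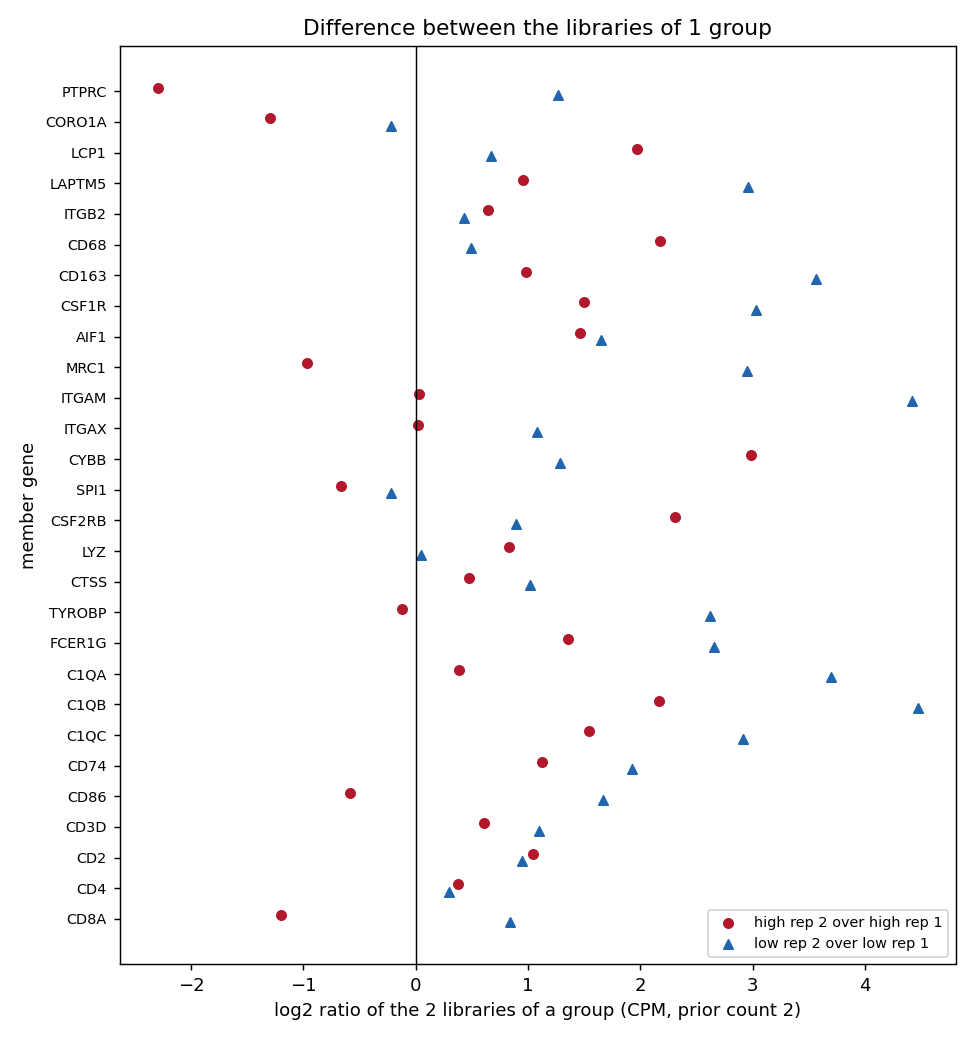
Log2 ratio of the 2 libraries of a group for the 28 members with 10 or more counts, as circles for high replicate 2 over high replicate 1 and triangles for low replicate 2 over low replicate 1. The triangles lie right of 0 for 26 of 28 members and the circles for 21.

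Most markers of other cells that surround the follicle were also higher in low replicate 2 than in low replicate 1. The 11 stromal and muscle markers summed to 123 and 177 CPM in high and 63.2 and 1635 CPM in low G0/G1 cells. COL1A1, the main collagen chain of fibroblasts, had 1023 and 790 counts in high and 519 and 11252 in low. CYP17A1, the androgen-making enzyme that defines theca cells, had 23 and 29 counts in high and 4 and 1485 in low. The 6 theca markers as a list summed to 1124 and 550 CPM in high and 362 and 544 CPM in low. LHCGR, singled out after its values were seen, made up 1001 and 277 CPM of this in high and 148 and 95.5 CPM in low. The sum was thus highest in high replicate 1, where CYP17A1 had 23 counts, and does not follow CYP17A1. All 11 stromal and muscle markers, 9 of 10 endothelial ones and 3 of 6 theca ones were higher in low replicate 2 than in low replicate 1. The 3 theca markers that were not were LHCGR, CYP11A1 and NR2F2. None of the stromal, endothelial and theca markers was at 0 in all libraries, and their part in the values of the leukocyte and macrophage genes was not tested.

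The 10 endothelial markers summed to 62.8 and 61.8 CPM in high and 73.2 and 104.9 CPM in low G0/G1 cells. TIE1, an endothelial receptor tyrosine kinase singled out after its values were seen, made up 38.7 and 12.1 CPM of this in high and 56.5 and 22.3 CPM in low. The other 9 summed to 24.1 and 49.7 CPM in high and 16.8 and 82.6 CPM in low. Of this KDR, also singled out after its values were seen, made up 1.98 and 29.5 CPM in high and 2.92 and 10.5 CPM in low. The order of the libraries thus depends on which endothelial genes are summed. The 5 erythroid genes with a row summed to 27.5 and 19.9 CPM in high and 9.32 and 15.7 CPM in low, nearly all of it HBB, the beta chain of haemoglobin, while AHSP and SLC4A1 had 0 counts in all 4 libraries. HBB had 808 and 549 counts in high and 291 and 442 in low, with a log2 fold change of 0.92 ± 0.37 (SE, edgeR adjusted p = 0.244).

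**Figure D5:**
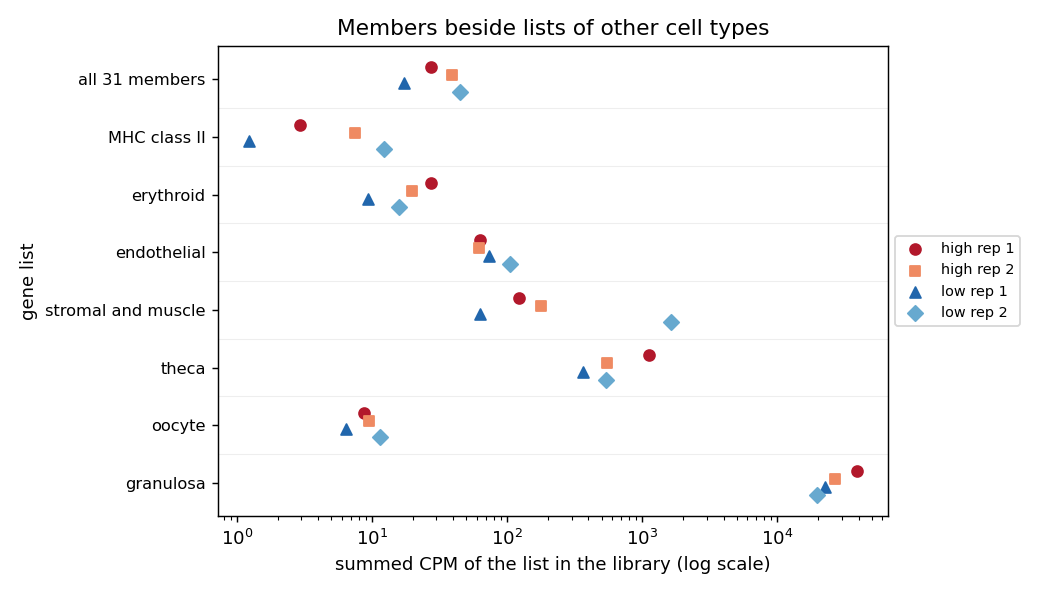
Summed CPM of the 31 members beside lists of other cell types, on a log axis with 1 point per library. Low replicate 2 stands far to the right for the stromal and muscle list at 1635 CPM, while the granulosa list lies between 19781 and 38919 CPM.

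Most other immune genes also had few counts. Of 98 genes listed for leukocytes in general, macrophages, T and natural killer cells, B cells, granulocytes and mast cells, and dendritic cells, 95 had a row, 17 of these had 0 counts in all 4 libraries and 63 had fewer than 10 in each. By edgeR 0 of the 20 tested had an adjusted p under 0.05, while 2 on the higher and 2 on the lower side had an unadjusted p under 0.05, and 9.92% and 10.8% of all genes tested did so. The 2 on the higher side were TLR2, a receptor for bacterial lipoproteins, and JCHAIN, which joins secreted antibodies. TLR2 had 31 and 142 counts in high and 9 and 17 in low G0/G1 cells (2.78 ± 0.97, SE, edgeR adjusted p = 0.212), and JCHAIN had 135 and 103 in high and 48 and 40 in low (1.49 ± 0.47, edgeR adjusted p = 0.196).

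The 2 on the lower side were CD247, the zeta chain of the T cell receptor complex, and the integrin gene ITGB7. CD247 had 351 and 252 counts in high and 759 and 616 in low G0/G1 cells (-1.13 ± 0.28, SE, edgeR adjusted p = 0.170). It was the single gene of these lists that DESeq2 called (DESeq2 adjusted p = 0.0237). DESeq2 called 11.3% of all genes to which it gave an adjusted p, and of the listed genes tested it gave none to CD53, FCGR3A, FOXP3 and CD79A. DESeq2's adjusted p for CD247 was 0.262 when high replicate 2 was left out, 0.592 for low replicate 1, 0.406 for low replicate 2 and 0.0278 for high replicate 1. Its partners of the complex, CD3D, CD3E and CD3G, had at most 8 counts in a library. ITGB7 had 10 and 7 counts in high and 26 and 44 in low (-1.99 ± 0.70, edgeR adjusted p = 0.214). Defining genes of other lineages were at 0 in all 4 libraries, among them MS4A1 and CD79B of B cells, S100A8 and S100A9 of neutrophils, and MS4A2 and CPA3 of mast cells.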

How the data were processed

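Total RNA of porcine granulosa cells was sequenced in 4 libraries, 2 per group, per the labels. The deposited file is a single table of raw counts, whole numbers by gene symbol. Reads were aligned with HISAT2 to Sscrofa11.1, per the submitters' processing notes, while the sources used here do not give the counter, annotation release, strand setting or filters. Coordinates come from the RefSeq annotation of the same assembly.

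High was compared with low G0/G1 with edgeR 4.0.16 in R 4.3.3 (TMM scaling, a filterByExpr filter at min.count 10 and min.total.count 15, glmQLFit and glmQLFTest, no covariate, Benjamini-Hochberg adjustment over all genes tested, threshold 0.05). DESeq2 1.42.0, limma 3.58.1 (voom), edgeR's likelihood ratio test, other scaling and filters and leaving out each library were the alternatives. The test was also run on simulated counts, with the same spread for genes of like level. The genes changed in them were drawn from those above a mean of 2 CPM. Most members lie below that level, so that run does not show what the test can find among them. Fold changes are high minus low. Standard errors divide the fold change's size by the square root of F. Within-group ratios use a prior count of 2. Replicate numbers follow the order of the samples and were not used as pairs. Sample titles hold codes that are not explained, and those of high replicate 2 and low replicate 2 begin with the same letter, W.

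The members and lists were chosen with earlier results of these data known. Every member is named. Of each other list, up to 4 tested genes with the smallest p may be named, and others were chosen after their values were seen. Of the listed genes LILRB4, ZAP70, CAMP, HBA1 and OOSP2 were not analysed here.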

Additional observations from a re-analysis of the deposited data

How the results depend on the processing

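No member was called under any alternative (0 in each, by edgeR, its likelihood ratio test, DESeq2 and limma-voom). Over all genes the count called, 0 by edgeR, was 1492 with DESeq2, 1091 with the likelihood ratio test and 5 with no filter on low counts, and it ranged from 0 to 954 with 1 library left out, the 954 being without high replicate 1. The members' median log2 fold change, 0.19, was -0.061 with no filter, when 30 members were tested. It ranged from -0.68 to 1.66 with 1 library left out, when 17 to 21 members were tested. The count of members on the higher side, 9 of 14, was 15 of 30 with no filter and 3 of 4 at a minimum average log2 CPM of 1. With 1 library left out it ranged from 3 of 18 without high replicate 2 to 14 of 17 without low replicate 2. The count whose groups did not overlap, 4 of 14, was 8 of 30 with no filter and 1 of 4 at that minimum. It was 6 of 18 without high replicate 2 and 11 of 20 without high replicate 1. Without low replicate 1 it was 15 of 21, and without low replicate 2 it was 15 of 17. Fewer libraries have to be in order when 1 is left out. The share over all genes is not given for any of these other fits. Their counts therefore do not show whether the members were separated more or less than other genes.

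When each library was left out in turn, log2 fold changes ran from -3.44 to 0.11 for PTPRC, -1.37 to 1.66 for LAPTM5, -0.42 to 2.02 for CD68, -0.68 to 6.72 for CD163, -0.72 to 3.11 for CSF1R, -0.12 to 0.87 for CTSS, -0.71 to 4.34 for C1QA, -1.40 to 5.13 for C1QB, -0.89 to 2.74 for C1QC and -0.43 to 1.54 for CD74. The high ends of CD163, C1QA and C1QB set both high libraries against low replicate 1 with 0, 1 and 1 counts, so they rest on a count at or near 0 in 1 library. LAPTM5 was at 0.049 with limma-voom. Direction changed in 9 of the 14 members when high replicate 2 was left out, in 7 for low replicate 1, in 2 for low replicate 2 and in 0 for high replicate 1. For most members the depth is a few counts per library, which limits what can be told.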

Other observations

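Several genes listed as leukocyte markers had many counts in every library, beside defining leukocyte genes near 0. They were picked after their values were seen. SELPLG, the ligand of P-selectin on leukocytes, had 4548 and 3555 counts in high and 5549 and 6027 in low G0/G1 cells. PTPN6, the tyrosine phosphatase SHP-1, had 1121 and 511 in high and 856 and 1182 in low, and ITGAL, the alpha chain of the integrin LFA-1, had 392 and 296 in high and 378 and 414 in low. HDC, the histamine-making enzyme, had 14179 and 13521 counts in high and 19146 and 20263 in low, while the mast cell genes MS4A2 and CPA3 had 0 counts in all 4 libraries. By edgeR all 4 missed the threshold, with an adjusted p of 0.307 for SELPLG, 0.733 for PTPN6, 0.800 for ITGAL and 0.301 for HDC.

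Ligands that act on myeloid cells were listed as 15 genes, of which 7 were tested, 2 on the higher and 5 on the lower side. By edgeR 0 of these had an adjusted or an unadjusted p under 0.05, against 0% and 20.7% of all genes tested. DESeq2 called 0 of these, against 11.3% of all genes to which it gave an adjusted p. IL34, a ligand of CSF1R, had 147 and 143 counts in high and 87 and 83 in low G0/G1 cells (0.83 ± 0.41, SE, edgeR adjusted p = 0.309). Its groups did not overlap, and 26.8% of all genes tested had both high libraries above both low ones. CSF1, the other ligand of CSF1R, had 81 and 453 counts in high and 129 and 89 in low (1.38 ± 0.85, edgeR adjusted p = 0.393), with its highest value in high replicate 2. The monocyte chemokine gene CCL2 had 2 and 21 counts in high and 7 and 137 in low, and the complement gene C3 had 32 and 67 in high and 4 and 722 in low, both highest in low replicate 2, the library that also held the most ITGAM, LAPTM5 and stromal counts.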
